A study of Mus musculus with 13 samples.

Results

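The effect of SW033291 on RNA levels in old quadriceps was measured in 6 of the 13 libraries of this mouse series. They were taken by their labels: 3 libraries of aged mice given SW033291 (libraries 1, 4 and 6) and 3 of aged mice given vehicle (libraries 2, 3 and 8), all of batch 2. Every library holds RNA of a whole quadriceps lysate of C57BL/6 mice, and the aged mice are labelled as older than 24 months. Injections into the peritoneum were given daily for 4 weeks, either 5 mg/kg SW033291 or vehicle, a solution of ethanol (10%), Cremophor EL (5%) and 5% dextrose in water (85%). Batch 1 holds 4 libraries of 3-month-old and 3 of aged mice, all given vehicle, which entered the same fit and served as an age reference. There were no young mice given SW033291 and no SW033291 libraries in batch 1. Levels set beside batch 1 below may also differ by batch, so they cannot tell which group of batch 2 moved. Nothing in the labels says that each library is a separate animal, so the p-values below measure the spread between libraries. In the fit, that spread is pooled within the groups of all 13 libraries, those of batch 1 included.

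SW033291 is a small-molecule inhibitor of 15-PGDH, the enzyme encoded by Hpgd. This enzyme oxidises prostaglandin E2 and so ends its signal, and prostaglandin E2 acts through the EP receptors, some of which raise cAMP in the cell. In muscle, prostaglandin E2 is known as a signal to satellite cells, the stem cells of muscle fibres. The inhibitor acts on the protein, so the RNA level of Hpgd is no check of the treatment.

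Values are TPM, each gene's share of the transcripts of a library after division by length, with the same total in each library. This unit keeps no record of the reads, so depth is unknown. In the 6 libraries, 10854 to 11422 genes stood at 1 TPM or more, and 39.65% to 43.53% of all TPM came from the top 20 genes. As the label of quadriceps requires, the 15 marker genes of muscle fibres were abundant, with a summed level of 235781 to 259845 TPM. Ckm, muscle creatine kinase, stood at 33782, 33753 and 35592 TPM in the vehicle and at 33599, 35867 and 37800 TPM in the SW033291 libraries. Pairs of libraries had Pearson correlations of at least 0.965 on the log2 scale across genes, and the 2 groups did not separate by this measure. In the order used throughout, 3 values of vehicle are of libraries 2, 3 and 8, and 3 values of SW033291 are of libraries 1, 4 and 6.

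No gene passed the test for SW033291 against vehicle. Of 11876 genes tested with limma on log2(TPM + 1), 0 (0%) had a Benjamini-Hochberg adjusted p under 0.05, and the lowest adjusted p was 0.18. At an unadjusted p under 0.05 there were 1221 genes (10.3%) and 1048 of them (8.82%) were lower with SW033291 against 173 (1.46%) higher. The median of all genes was itself -0.132 on the log2 scale, and with median-of-ratios scaling it was -0.004. Under that scaling 928 genes (7.81%) had an unadjusted p under 0.05, of which 525 (4.42%) were higher and 403 (3.39%) lower, and again 0 passed. The groups did not overlap for 2027 genes (17.1%), with 231 (1.95%) higher and 1796 (15.1%) lower. With median-of-ratios scaling this was so for 1439 genes (12.1%), split into 720 higher (6.06%) and 719 lower (6.05%). A typical SE was 0.211 (the median over genes), and for 83.6% of genes the 95% interval of the difference lay within 1 log2 unit of 0. Below, each log2 difference is given relative to the median of all genes with its SE from limma (n = 3 libraries a group), each p tests the difference before that shift, and no named gene passed.

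Among genes of at least 5 TPM that did not overlap between groups and had an unadjusted limma p under 0.01, the 10 with the largest higher differences had log2 differences of 0.78 to 1.70. Timm9, a chaperone of protein import into the mitochondrial inner membrane, stood at 24.6, 29.9 and 33.1 TPM with vehicle and at 52.0, 47.2 and 45.7 TPM with SW033291. All 3 SW033291 values lay above each of the 10 vehicle libraries of both batches, which ran from 24.6 to 33.2 TPM. The log2 difference was 0.85 (SE 0.12) with an adjusted p of 0.18. Atpif1, the inhibitor protein of the mitochondrial ATP synthase, stood at 47.4, 62.0 and 51.8 TPM with vehicle and at 90.2, 90.9 and 81.9 TPM with SW033291, a log2 difference of 0.84 (SE 0.17, adjusted p 0.344). Ndufaf2, an assembly factor of complex I, stood at 21.5, 22.4 and 21.2 TPM with vehicle and at 39.2, 29.7 and 36.5 TPM with SW033291 (log2 difference 0.80, SE 0.16, adjusted p 0.392). For both genes the SW033291 libraries were all higher, and library 4 was the lowest of them for Ndufaf2. Qtrt1, a subunit of the enzyme that puts queuine into tRNA, stood at 2.54, 3.45 and 4.53 TPM with vehicle and at 7.26, 7.98 and 10.3 TPM with SW033291 (log2 difference 1.22, SE 0.19, adjusted p 0.18). Il15, a cytokine made by muscle fibres among other cells, stood at 3.31, 7.13 and 6.29 TPM with vehicle and at 10.2, 13.2 and 9.04 TPM with SW033291 (log2 difference 1.01, SE 0.28, adjusted p 0.41). The other genes of this kind were Tmsb15l, Rpa3, St6galnac2, Tcea2 and Ccl27a, with log2 differences between 0.78 and 1.70. Tmsb15l, the largest of the 10, has a mean of normalised counts of 0.0 and no fold change in the authors' deposited table, so its difference is uncertain. Rpa3 has a mean of 8.7 there, with a log2 fold change of 0.41 (SE 0.67). Of the 10 genes, 2 (Timm9 and St6galnac2) had all SW033291 libraries above all 10 vehicle libraries of the series, as had 34 (0.286%) of all genes tested. The 10 genes were chosen for not overlapping with the vehicle libraries of batch 2, so part of this was fixed by the choice.

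On the lower side, the 10 genes chosen in the same way had log2 differences of -0.84 to -1.24. Cxxc5, a zinc-finger protein that acts in Wnt signalling, stood at 15.0, 18.1 and 29.1 TPM with vehicle and at 8.95, 6.68 and 10.1 TPM with SW033291. Each SW033291 value was below all 10 vehicle libraries, whose lowest was 12.7 TPM. The log2 difference was -1.01 (SE 0.21, adjusted p 0.258). Tnrc18 stood at 7.83, 8.67 and 11.4 TPM with vehicle and at 4.23, 4.13 and 3.19 TPM with SW033291 (log2 difference -0.95, SE 0.22, adjusted p 0.308). Here the 7 libraries of batch 1 ran from 3.34 to 6.85 TPM. The vehicle libraries of batch 2 were the high ones of the series, a comparison across batches. Pdpn, podoplanin, a membrane protein of lymphatic endothelium and some stromal cells, stood at 7.90, 4.76 and 4.64 TPM with vehicle and at 2.25, 3.56 and 1.54 TPM with SW033291 (log2 difference -0.85, adjusted p 0.394). Fads6, Mob1a, Hist1h1e, Nupl1, Tdrkh, Alg14 and Snhg10 completed the 10. For 2 of the 10 (Cxxc5 and Fads6) the SW033291 libraries lay below all 10 vehicle libraries, as for 101 (0.85%) of all genes tested. Here too, part of this was fixed by the choice of genes.

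**Figure D1:**
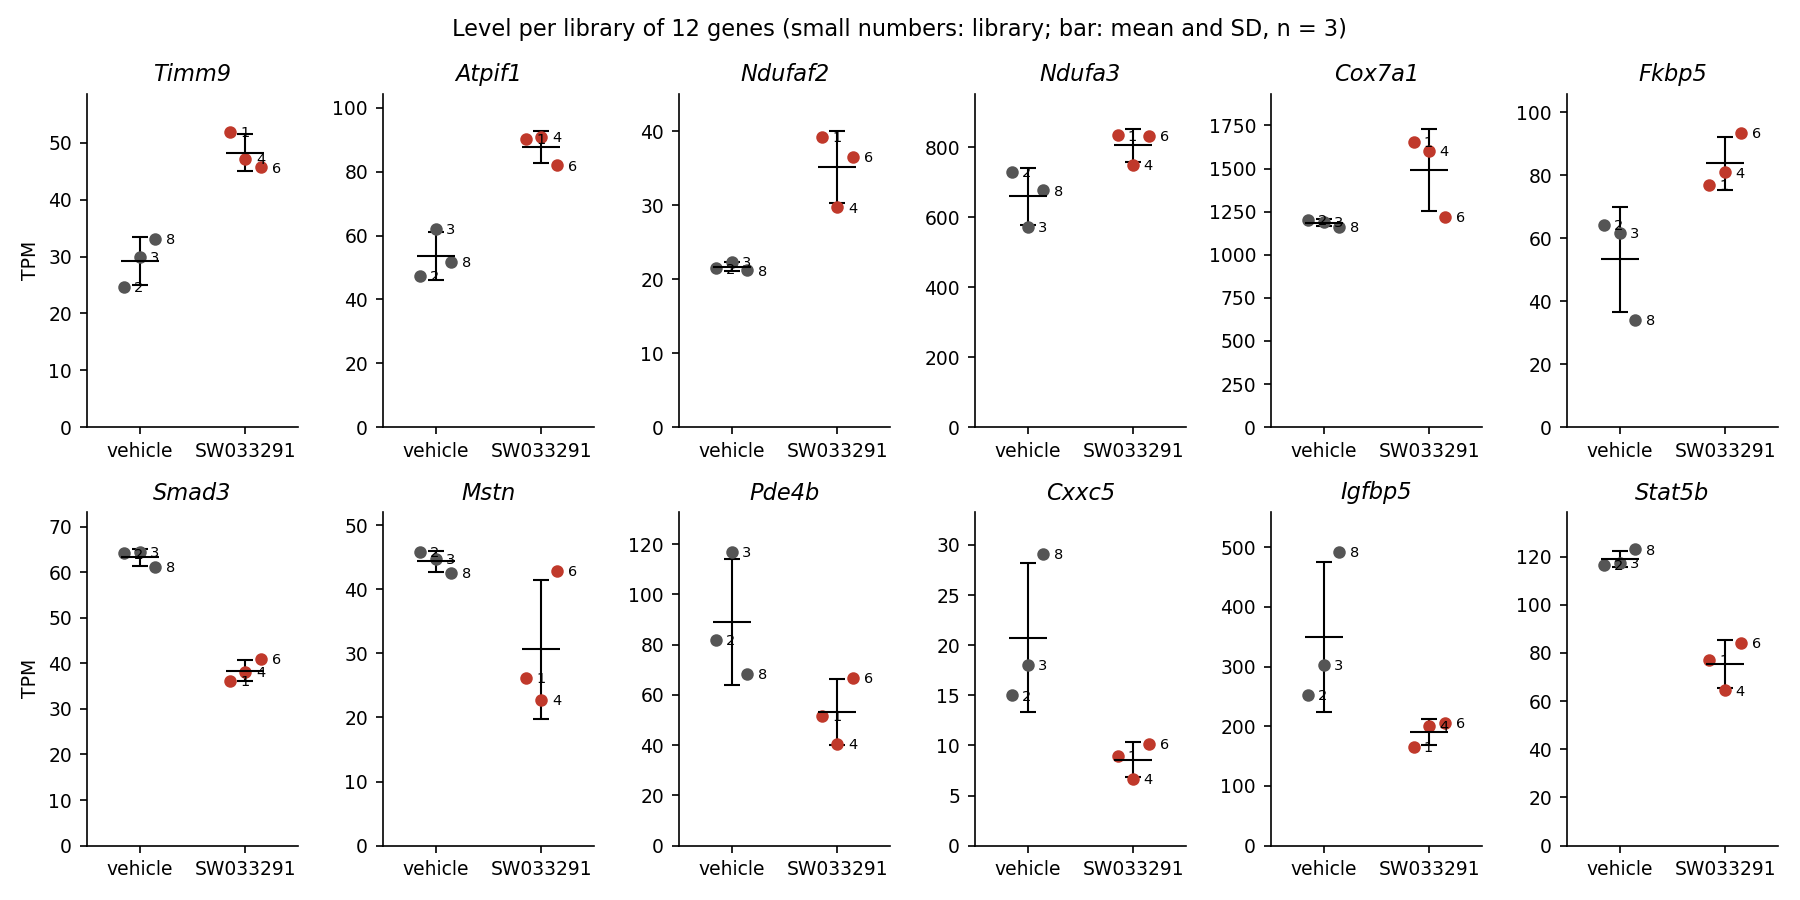
Level of 12 genes in TPM (vertical axis, from 0) in the 3 vehicle and 3 SW033291 libraries of batch 2, with each point 1 library, its number beside it, and bars for mean and SD. Smad3 and Stat5b show tight groups that do not overlap, while for Mstn SW033291 library 6 lies at 42.9 TPM among the vehicle libraries.

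The prostaglandin genes showed no common shift. Of the 24 genes of synthesis, breakdown, transport and reception, 15 were tested, 12 were above the median of all genes, and their median was 0.061 above that of all genes. Hpgd, the gene of the inhibited enzyme, stood at 2.36, 6.23 and 12.8 TPM with vehicle and at 6.47, 3.14 and 2.83 TPM with SW033291. Its groups overlapped, the vehicle libraries spanned the whole range of the SW033291 ones, and the log2 difference was -0.37 (SE 0.49, adjusted p 0.705). In batch 1 it ran from 1.32 to 2.87 TPM in young and from 7.59 to 25.4 TPM in aged libraries, with an adjusted p of 0.0598 for age, which missed the threshold. Of the synthesis genes, Ptgs2, the inducible cyclooxygenase, was listed at 0 in all 6 libraries, and Ptgs1, the constitutive one, ran from 0.70 to 2.52 TPM. The terminal synthases of prostaglandin E2 were led by Ptges3, at 46.8, 62.6 and 46.7 TPM with vehicle and 55.5, 52.1 and 50.2 TPM with SW033291, and by Ptges2, at 29.6, 29.6 and 30.1 against 31.9, 29.7 and 23.5 TPM. Ptges, the inducible synthase, stood between 0.33 and 1.56 TPM. Among the receptors, Ptger1 was the highest per length (5.34 to 9.06 TPM with vehicle and 5.25 to 8.92 TPM with SW033291). Ptger4 (0.18 to 2.09 and 0.61 to 1.76 TPM) and Ptgir, the prostacyclin receptor (0.72 to 1.48 and 0.79 to 1.20 TPM), lay lower, and the groups overlapped for all 3. Ptger2 was listed at 0 in all vehicle libraries, and Ptger3 too, with 0.29 to 0.68 TPM under SW033291, under the level needed for testing. Abcc4, an exporter of prostaglandin E2 and of cAMP, stood at 7.65, 10.8 and 7.74 TPM with vehicle and at 6.67, 5.98 and 5.18 TPM with SW033291. Its groups did not overlap, and the log2 difference was -0.35 (SE 0.19, adjusted p 0.418).

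Genes that respond to cAMP and CREB, the transcription factor that cAMP switches on, were not higher as a list. Of 21 tested members, 8 were above the median of all genes, 1 had an unadjusted limma p under 0.05 higher and 2 lower (1.46% and 8.82% of all genes), and the list's median was 0.10 below that of all genes. With median-of-ratios scaling, 2 were higher and 2 lower at this p (4.42% and 3.39% of all genes). Pde4b, a phosphodiesterase that breaks down cAMP, stood at 82.0, 117 and 68.4 TPM with vehicle and at 51.8, 40.6 and 66.8 TPM with SW033291 (log2 difference -0.60, SE 0.25, adjusted p 0.418). Library 6 of SW033291 lay just under the lowest vehicle library. Gadd45b, a stress-response gene, stood at 12.02, 16.6 and 13.7 TPM with vehicle and at 16.0, 24.2 and 20.5 TPM with SW033291 (log2 difference 0.61, SE 0.20, adjusted p 0.434), with library 1 inside the vehicle range. Nr4a1, a nuclear receptor induced by cAMP, stood at 132, 85.8 and 77.7 against 136, 123 and 94.0 TPM, and Crem at 8.19, 9.10 and 13.7 against 10.9, 6.84 and 7.99 TPM, both with overlapping groups. Ppargc1a, the co-activator of mitochondrial gene expression that CREB also drives, stood at 8.39, 13.1 and 7.18 TPM with vehicle and at 7.24, 9.93 and 8.87 TPM with SW033291 (log2 difference 0.04, SE 0.25, adjusted p 0.891).

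TGF-beta and myostatin signalling restrains muscle growth through receptors that phosphorylate Smad2 and Smad3. More of its genes were lower than higher: 10 of 30 tested members were above the median of all genes, 7 had an unadjusted limma p under 0.05 lower and 1 higher (8.82% and 1.46% of all genes), and the list's median was 0.221 below that of all genes. With the length trend removed, the list's median was 0.117 below. Without overlap between groups, 9 members were lower and 1 was higher (15.1% and 1.95% of all genes). With median-of-ratios scaling, 3 were lower and 1 higher without overlap (6.05% and 6.06% of all genes). Under that scaling, 5 lower and 1 higher had an unadjusted limma p under 0.05 (3.39% and 4.42% of all genes). Mstn, the ligand myostatin, stood at 45.8, 44.7 and 42.6 TPM with vehicle and at 26.1, 22.8 and 42.9 TPM with SW033291. Libraries 1 and 4 were below the vehicle libraries of batch 2 and library 6 was at their level (log2 difference -0.44, SE 0.22, adjusted p 0.425). In batch 1 Mstn ran from 22.6 to 41.0 TPM. SW033291 libraries 1 and 4 lay inside that range and the vehicle libraries of batch 2 above it, a comparison across batches. Tgfb2 and Tgfb3, further ligands, stood at 17.2, 12.7 and 9.90 against 6.43, 8.30 and 9.92 TPM, and at 37.0, 31.7 and 35.7 against 31.6, 24.4 and 22.2 TPM. Tgfb1 overlapped between groups, at 4.57, 1.18 and 3.64 against 5.21, 2.25 and 2.93 TPM. Of the receptors, Acvr2a, which binds activin and myostatin, stood at 10.1, 9.97 and 10.4 TPM with vehicle and at 5.54, 5.49 and 8.54 TPM with SW033291 (log2 difference -0.46, SE 0.35, adjusted p 0.557). Acvr1b, Tgfbr2, Ltbp3 and Skil were also lower without overlap in TPM, and Tgfbr2 went from -0.13 to 0.04 with the length trend removed.

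The signal transducer Smad3 showed the clearest separation in this pathway. Smad3 stood at 64.1, 64.5 and 61.1 TPM with vehicle and at 36.2, 38.1 and 40.9 TPM with SW033291, a log2 difference of -0.57 (SE 0.20, adjusted p 0.397). The groups were far apart relative to the spread within each. The young libraries of batch 1 ran from 34.1 to 53.9 TPM and the aged from 20.7 to 37.1 TPM. The vehicle libraries of batch 2 lay above all of these, but batch and group cannot be told apart in this comparison. Smad4, the shared partner of the Smads, stood at 30.3, 30.7 and 23.2 TPM with vehicle and at 19.3, 16.7 and 22.5 TPM with SW033291 (log2 difference -0.37, SE 0.19, adjusted p 0.418). Id1, a target of BMP signalling that belongs to the same list, was the 1 member higher without overlap, at 9.57, 12.7 and 14.3 TPM with vehicle and 25.7, 15.6 and 20.4 TPM with SW033291 (log2 difference 0.83, SE 0.27, adjusted p 0.418). Id2, its relative, went the other way, at 5.31, 2.06 and 3.68 against 1.14, 1.47 and 1.13 TPM (log2 difference -0.87, SE 0.42, adjusted p 0.45).

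The listed genes of the mitochondrial respiratory chain, all of them nuclear, were above the median of all genes. The list holds no subunit encoded by mitochondrial DNA. All 77 listed subunits of complexes I to V, with cytochrome c, were tested, and all 77 lay above that median, where 50% of genes do by definition. The list's median was 0.249 above that of all genes, 67 of 77 were higher with SW033291 than with vehicle (28.9% of all genes, or 49.2% with median-of-ratios scaling), 9 had an unadjusted limma p under 0.05 higher (1.46% of all genes) and 0 lower, and 16 were higher without overlap (1.95% of all genes) against 0 lower. With median-of-ratios scaling, 46 had an unadjusted p under 0.05 higher, beside 4.42% of all genes, and none of the 77 passed after adjustment under either scaling. By complex, the medians were 0.238 for the 37 genes of complex I (NADH dehydrogenase), 0.155 for the 4 of complex II (succinate dehydrogenase), 0.298 for the 9 of complex III (cytochrome c reductase), 0.280 for the 11 of complex IV (cytochrome c oxidase) and 0.250 for the 15 of complex V (ATP synthase). In single libraries, the list's median level on the log2 scale, relative to each gene's mean over the 6 libraries, was -0.175, -0.168 and -0.063 with vehicle and 0.195, 0.166 and 0.035 with SW033291. The groups did not overlap, and vehicle library 8 and SW033291 library 6 were the nearest to each other. By this measure the groups also did not overlap for the TGF-beta, IGF, clock and glycolysis lists. Summed over the list, the level was 62064, 62387 and 63491 TPM with vehicle and 72847, 68129 and 63524 TPM with SW033291. In batch 1 this sum ran from 65260 to 67544 TPM in young and from 67557 to 72199 TPM in aged libraries. By this sum the vehicle libraries of batch 2 were the low ones of the series. What batch adds to this was not tested.

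Ndufa3, a subunit of complex I, stood at 729, 572 and 677 TPM with vehicle and at 834, 750 and 832 TPM with SW033291 (log2 difference 0.43, SE 0.10, adjusted p 0.41). Cox7a1, the muscle form of a complex IV subunit, stood at 1202, 1190 and 1164 TPM with vehicle and at 1656, 1602 and 1218 TPM with SW033291 (log2 difference 0.45, SE 0.11, adjusted p 0.418). Library 6 was close to the vehicle libraries for Cox7a1 and not for Ndufa3. Ndufa12, of complex I, stood at 661, 683 and 643 against 857, 741 and 804 TPM (log2 difference 0.40, SE 0.09, adjusted p 0.418). In batch 1, Ndufa3 ran from 733 to 917, Cox7a1 from 1416 to 1641 and Ndufa12 from 713 to 841 TPM. For each of these genes the vehicle libraries of batch 2 were the lowest of the series, again a comparison across batches. Atp5e, of complex V, stood at 1485, 1584 and 1704 against 1961, 1868 and 1802 TPM, and Uqcr10, of complex III, at 1020, 1005 and 1202 against 1302, 1226 and 1217 TPM, each without overlap. Among the subunits nearest to the median of all genes were Uqcrc2 (0.07), Ndufb4 (0.07) and Atp5a1 (0.08). Of 23 tested genes of mitochondrial biogenesis and dynamics, 10 were above the median. Tfam, which packs and transcribes mitochondrial DNA, stood at 30.1, 31.6 and 27.7 against 28.1, 26.1 and 24.3 TPM. These 23 genes have longer transcripts, with a median of 4288 bases against 1141 for the respiratory genes, and length moved with the difference (below). With median-of-ratios scaling their median was -0.039, beside -0.09 for all genes of 4000 to 8000 bases. The part of length in this contrast was not tested. Of 23 tested genes of the citric acid cycle, 17 were above the median of all genes, with a list median of 0.142, and Cs, citrate synthase, stood at 659, 698 and 635 against 595, 558 and 560 TPM.

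**Figure D2:**
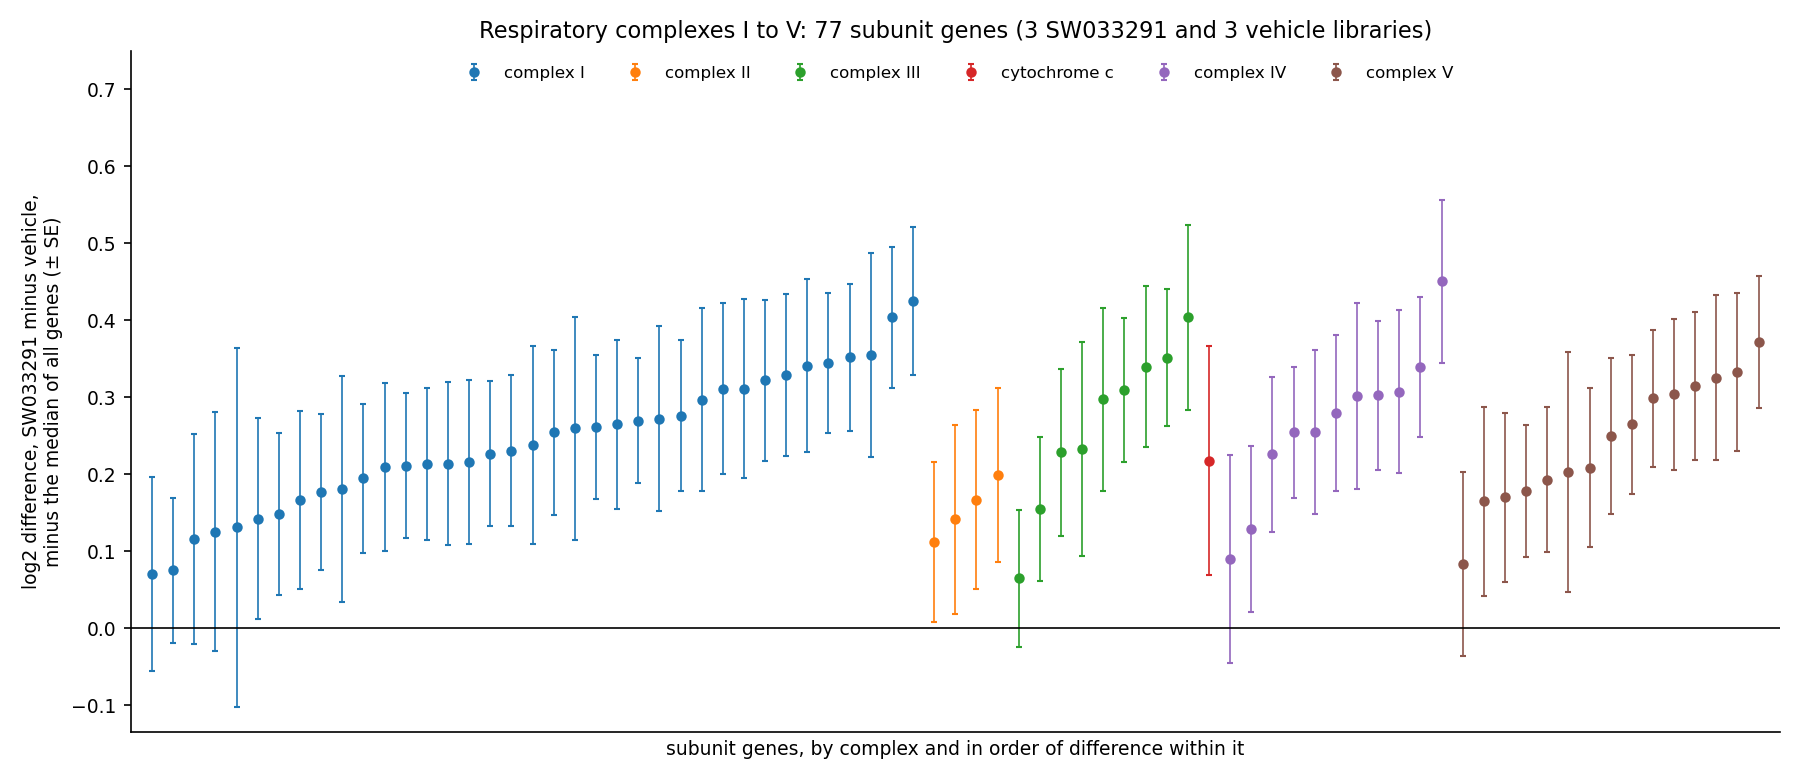
Log2 difference of SW033291 minus vehicle, less the median of all genes, for the 77 tested respiratory genes (points, with SE bars from the fit), grouped by complex and ordered within it. All 77 points lie above 0, from 0.065 to 0.451.

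Promoter sequences are shown for 2 genes of this list, whose genes all lay on 1 side of the median of all genes, and for Atpif1, which is not in the list and was among the 10 largest higher differences. Windows of the 250 bases before the start site were read from RefSeq (GRCm38.p6), where 63 of the 77 genes matched by symbol. Each was searched on both strands for the cAMP response element TGACGTCA, its core TGACGT, and the site of NRF1, a factor known for respiratory genes, as its consensus of 10 bases with any base allowed at 1 of them. The 3 windows below are those of Ndufa11 (complex I, chr17:56717512-56717761, plus strand), Cycs (cytochrome c, chr6:50566570-50566819, minus strand) and Atpif1 (chr4:132535415-132535664, minus strand). They were picked after the search because they hold matches, which are in capitals: both motifs in Ndufa11, the cAMP core in Cycs and the NRF1 site in Atpif1.
Ndufa11: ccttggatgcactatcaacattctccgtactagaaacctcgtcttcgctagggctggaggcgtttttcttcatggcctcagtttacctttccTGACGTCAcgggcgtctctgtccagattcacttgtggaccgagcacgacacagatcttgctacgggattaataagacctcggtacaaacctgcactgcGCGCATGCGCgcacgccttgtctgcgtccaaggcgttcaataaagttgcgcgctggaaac
Cycs: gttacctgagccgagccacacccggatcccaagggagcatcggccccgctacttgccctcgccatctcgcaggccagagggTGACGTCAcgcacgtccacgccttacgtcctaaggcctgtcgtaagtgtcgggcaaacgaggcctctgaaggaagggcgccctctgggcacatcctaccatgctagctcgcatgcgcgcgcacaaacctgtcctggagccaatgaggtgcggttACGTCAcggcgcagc
Atpif1: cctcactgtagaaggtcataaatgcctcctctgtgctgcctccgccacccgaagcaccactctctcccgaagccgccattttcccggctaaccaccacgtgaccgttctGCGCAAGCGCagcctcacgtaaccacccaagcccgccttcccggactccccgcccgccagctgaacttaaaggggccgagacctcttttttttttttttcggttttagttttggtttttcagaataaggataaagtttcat
The NRF1 letters were in the window of 12 of the 63 respiratory genes (19.0%), of 853 of 8941 matched genes tested (9.5%) and in 3.74% of all 32851 windows of the table. The core TGACGT, which the full element contains, was in 8 of the 63 (12.7%), in 1060 of the 8941 genes tested (11.9%) and in 6.47% of all windows. The full TGACGTCA was in 5 of the 63 (7.9%), 276 of the 8941 (3.1%) and 1.55% of all windows. Of the 10 genes with the largest higher difference, 7 matched, 0 held either cAMP motif and 1 (Atpif1) held the NRF1 letters. Of the 10 with the largest lower difference, 8 matched and 0 held any of these letters in this window. Of the 3 genes shown, Ndufa11 stood at 52.7, 50.3 and 53.7 TPM with vehicle and at 59.6, 60.7 and 59.6 TPM with SW033291 (log2 difference 0.33, SE 0.11), without overlap. Cycs overlapped, at 229, 259 and 223 against 283, 266 and 211 TPM.

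Transcript length moved with the difference between the groups, and respiratory genes are short, with a median of 1141 bases against 3282 for all genes. Across the 11789 tested genes with an annotated length, the Spearman correlation of difference and length was -0.364, a description over genes that share their libraries. With median-of-ratios scaling, the median difference was 0.18 for the 612 genes of at most 1000 bases, 0.112 for 2084 genes of 1000 to 2000 bases, 0.021 for 4797 genes of 2000 to 4000, -0.09 for 3702 genes of 4000 to 8000 and -0.182 for the 594 longer ones. Respiratory genes lay above the other genes in each class that holds at least 5 of them, at 0.285 (35 genes), 0.257 (24 genes) and 0.218 (14 genes) in the 3 shortest. Short genes of neither this nor the ribosomal list stood at -0.126, -0.17 and 0.037 in the vehicle and at 0.153, 0.057 and 0.044 in the SW033291 libraries, relative to the mean of the 6. With the length trend removed from the differences, 68 of the 77 respiratory genes remained above the median of all genes, by a median of 0.115.

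Ribosomal protein genes, which share the short length, also lay above the median, by less. Of 80 tested, 76 lay above the median of all genes by a median of 0.175. At an unadjusted limma p under 0.05 there were 0, beside 1.46% of all genes higher and 8.82% lower. Without overlap, 3 were higher (1.95% of all genes). With median-of-ratios scaling, 14 had an unadjusted p under 0.05 higher (4.42% of all genes) and 18 were higher without overlap (6.06% of all genes). With the length trend removed, 46 of 80 lay above the median, by 0.024. Rpl35 stood at 641, 688 and 772 against 807, 745 and 851 TPM, and Rpl9 at 610, 620 and 608 against 787, 652 and 632 TPM. Such genes share reads with near-identical pseudogene copies, so their levels are uncertain.

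**Figure D3:**
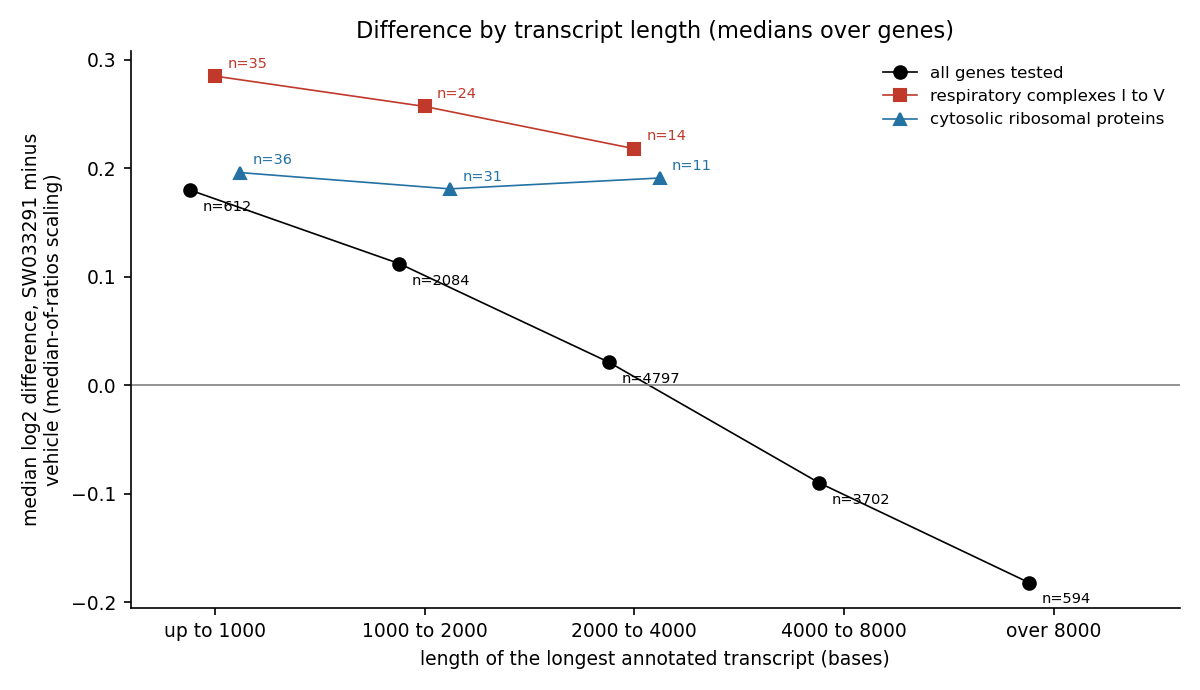
Median log2 difference of SW033291 minus vehicle (vertical axis, median-of-ratios scaling) in 5 classes of transcript length in bases, for all genes tested, respiratory and ribosomal protein genes, with the number of genes beside each point and classes of under 5 genes of a list left out. All genes fall from 0.18 in the shortest to -0.182 in the longest class, and the respiratory genes lie above them in the 3 shortest.

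Genes of calcium handling in the fibre, with a median length of 4115 bases, lay mostly below the median. Of 25 tested members of excitation-contraction coupling, 7 were above the median of all genes, 7 had an unadjusted limma p under 0.05 lower and 0 higher (8.82% and 1.46% of all genes), and the list's median was 0.081 below that of all genes. With median-of-ratios scaling, 3 were lower at this p (3.39% of all genes). With the length trend removed, the list's median was 0.059 below that of all genes. Jph1, which holds the membranes of the calcium release site together, stood at 218, 219 and 182 TPM with vehicle and at 147, 150 and 172 TPM with SW033291 (log2 difference -0.26, SE 0.12, adjusted p 0.397). Scn4a, the sodium channel of muscle, stood at 239, 232 and 162 against 140, 160 and 137 TPM (log2 difference -0.38, SE 0.16, adjusted p 0.407). Ryr1, the calcium release channel, overlapped at 804, 829 and 573 against 500.1, 622 and 566 TPM, with vehicle library 8 inside the SW033291 range. Sln, an inhibitor of the calcium pump, overlapped widely, at 18.7, 32.7 and 64.1 against 73.7, 23.2 and 52.8 TPM (log2 difference 0.52, SE 0.46, adjusted p 0.757).

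Fibre type genes varied between single libraries more than between groups. Myh4, which encodes the myosin of type IIB (the fastest) fibres, stood at 30410, 36932 and 24139 TPM with vehicle and at 23275, 33583 and 28364 TPM with SW033291. In batch 1 Myh4 ran from 10873 to 18806 TPM, below all libraries of batch 2 in both groups. Myh7, the slow myosin, stood at 73.9, 66.4 and 8.34 TPM with vehicle and at 0.81, 74.3 and 2.05 TPM with SW033291 (log2 difference -2.14, adjusted p 0.586). Thus 3 libraries were high and 3 low, across both groups. In the authors' deposited table Myh7 has a log2 fold change of -0.79 (SE 1.76) and no p-value, beside a log2 ratio of mean TPM of -0.95. The list of 15 slow fibre genes followed them, with a median of -0.291 relative to all genes, which became 0.141 without SW033291 library 6 and -0.735 without SW033291 library 4. Fewer slow fibres in a piece of muscle and less RNA per slow fibre cannot be told apart in such bulk samples.

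Genes of muscle wasting were not shifted as a list. Of 22 tested ubiquitin ligases, FoxO factors and their targets, 9 were above the median of all genes, with a list median of 0.048 below it, and 2 were lower and 0 higher at an unadjusted limma p under 0.05, near the share of all genes (8.82% lower). Trim63 (MuRF1), a ubiquitin ligase of atrophy, stood at 493, 567 and 360.0 TPM with vehicle and at 396, 520.2 and 441 TPM with SW033291 (log2 difference 0.08, SE 0.22, adjusted p 0.945). Fbxo32 (atrogin-1) stood at 174, 203 and 135 against 121, 159 and 170.0 TPM, with overlap (log2 difference -0.05, SE 0.23, adjusted p 0.775). The 95% interval of neither gene reached a change of 1 log2 unit. Traf6, an adaptor with ligase activity, was lower without overlap, at 9.82, 11.4 and 8.73 against 6.62, 6.62 and 5.91 TPM (log2 difference -0.44, SE 0.22, adjusted p 0.418). Hdac4, a denervation-response gene, stood at 15.2, 20.6 and 10.6 against 5.88, 10.9 and 5.16 TPM (log2 difference -0.87, adjusted p 0.418), with library 4 inside the vehicle range.

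Of 27 tested genes of IGF, insulin and mTOR signalling, 9 were above the median of all genes, and the list's median was 0.099 below it. At an unadjusted limma p under 0.05, 5 were lower and 0 higher, beside 8.82% and 1.46% of all genes. With median-of-ratios scaling 3 were lower and 1 higher at this p, beside 3.39% and 4.42% of all genes. The tested members have a median length of 6266 bases, and with the length trend removed the list's median was 0.016 below that of all genes. Igfbp5, a secreted binding protein of IGF, stood at 253, 303 and 492 TPM with vehicle and at 166, 200.1 and 206 TPM with SW033291 (log2 difference -0.69, SE 0.23, adjusted p 0.397). The groups did not overlap, and vehicle library 8 was the highest. Irs2, an adaptor of the insulin receptor, stood at 7.45, 6.47 and 4.11 against 3.48, 3.80 and 3.43 TPM, and Grb10, an inhibitor of that receptor, at 14.7, 14.7 and 11.2 against 8.83, 10.8 and 8.88 TPM.

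Of 19 tested cytokine and NF-kB genes, 6 were above the median of all genes, and the list's median was 0.203 below it. At an unadjusted limma p under 0.05, 5 were lower and 1 (Il15) higher, beside 8.82% and 1.46% of all genes. With median-of-ratios scaling 3 were lower and 2 higher at this p, beside 3.39% and 4.42% of all genes. Tnfaip3 (A20), a brake on NF-kB that NF-kB itself induces, stood at 3.11, 2.58 and 4.78 TPM with vehicle and at 1.20, 1.30 and 0.75 TPM with SW033291 (log2 difference -0.96, SE 0.23, adjusted p 0.320). Nfkb1 stood at 13.9, 11.2 and 16.0 against 11.1, 9.03 and 7.94 TPM, again without overlap.

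Markers of other cell types differed between single libraries. The 18 adipocyte genes had a median of 0.938 relative to all genes, which was 0.197 without SW033291 library 1. Cfd (adipsin), an adipocyte product, stood at 81.3, 71.6 and 237 TPM with vehicle and at 1267, 118 and 157 TPM with SW033291, and Adipoq (adiponectin) at 13.8, 10.2 and 24.0 against 151, 14.8 and 12.9 TPM. Library 1 was the high one for both. For Adipoq the ratio of mean TPM is 1.90 on the log2 scale, beside 2.09 in the authors' deposited table. Granulocyte genes were high in vehicle library 2 and SW033291 library 4: S100a8 stood at 310, 2.60 and 4.92 against 3.73, 99.97 and 2.75 TPM, and the summed level of the list ran from 8.79 to 814 TPM with vehicle and from 7.01 to 243 TPM with SW033291. Matrix genes had a median of -0.157, with 12 of 44 above that of all genes. At an unadjusted limma p under 0.05, 5 were lower (8.82% of all genes), or 2 with median-of-ratios scaling (3.39% of all genes). The median of the matrix genes was 0.051 without SW033291 library 6. Their list level in that library was -0.456 against 0.107 and 0.06 in the other SW033291 libraries. Pax7, the defining gene of satellite cells, stood at 0.76 TPM or less in every library and was not tested. The part of these cell types in the results above was not tested, apart from the leave-out values given here. Without vehicle library 2 and SW033291 library 4, the respiratory median was 0.217 with 75 of 77 above that of all genes, and without SW033291 library 1 it was 0.220 with 75 of 77.

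**Figure D4:**
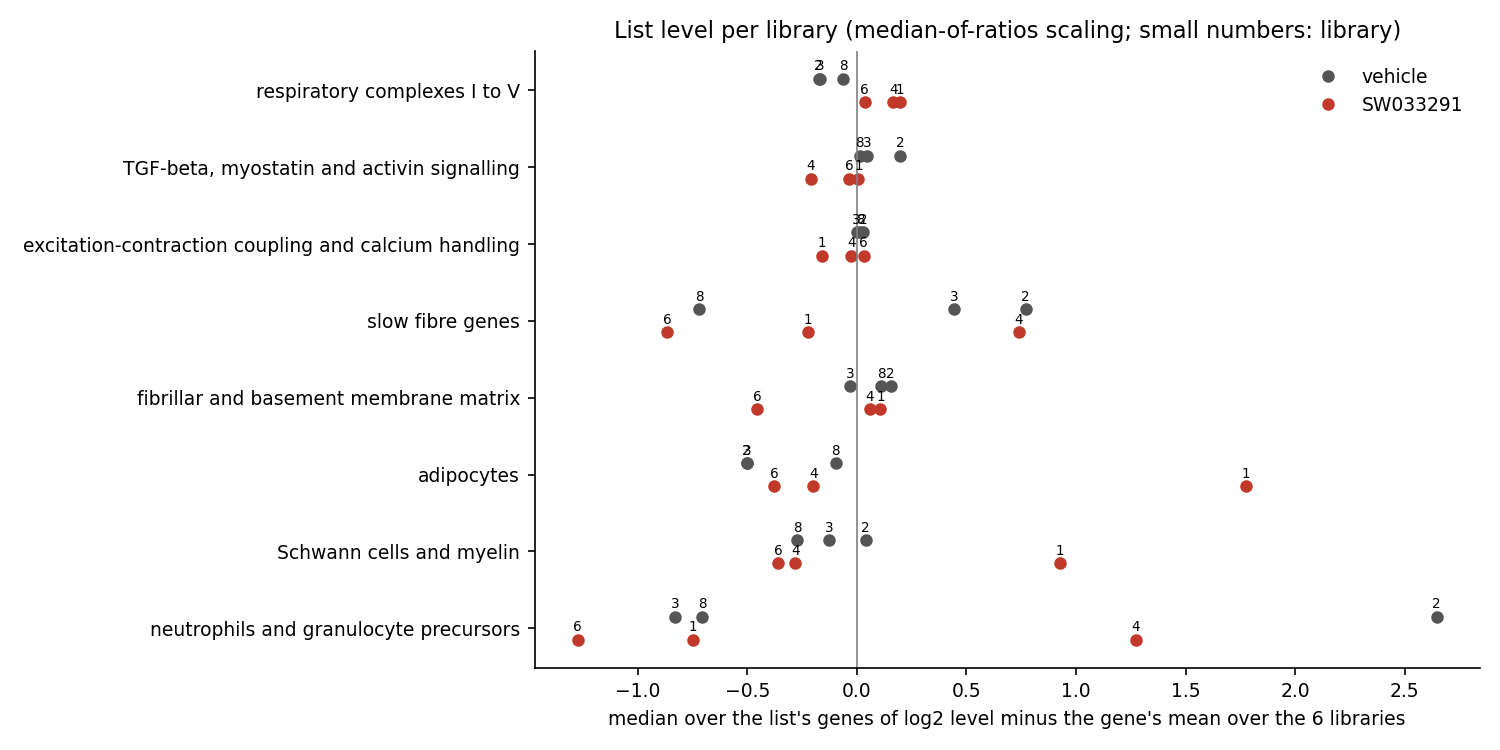
Level of 8 gene lists in each of the 6 libraries (horizontal axis, median over the list's genes of the log2 level minus each gene's mean over the 6 libraries, with median-of-ratios scaling), vehicle in grey and SW033291 in red, with library numbers. Respiratory genes separate the groups, as does the TGF-beta list by a small gap (lowest vehicle 0.012, highest SW033291 0.007). The adipocyte list is set by library 1 (1.776) and the granulocyte list by libraries 2 (2.647) and 4 (1.273).

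Genes that differed with age in batch 1 were followed into the SW033291 comparison, whose differences use none of those libraries, although its SEs and p-values share their spread through the fit of all 13 libraries. In batch 1, 54 of 11876 genes (0.455%) passed the test for aged against young, 44 higher (0.37%) and 10 lower (0.0842%). Of the 44 higher with age, 27 lay below the median of all genes with SW033291 and 17 above, with a median of 0.036 below it, and of the 10 lower with age 5 lay on each side. Rrad, a GTPase known to hold back calcium channels, rose with age from between 0.71 and 2.59 TPM to between 10.1 and 22.6 TPM (log2 difference 2.87, SE 0.54, adjusted p 0.0326). With SW033291 it showed the largest difference against age, at 12.5, 96.2 and 36.0 TPM with vehicle and 22.3, 9.23 and 8.01 TPM with SW033291 (log2 difference -1.37, SE 0.57, adjusted p 0.418). The groups overlapped, and vehicle library 3 was far above the rest. Uchl1, a deubiquitinase of nerve and denervated muscle, rose with age from between 1.24 and 3.56 to between 4.97 and 9.41 TPM (log2 difference 1.31, SE 0.26, adjusted p 0.0459). It lay further along the age direction with SW033291, at 5.24, 3.49 and 5.32 against 9.83, 6.64 and 7.03 TPM, without overlap (log2 difference 0.77, adjusted p 0.463). Gadd45a, which drives fibre atrophy, rose with age from at most 57.6 to at least 122 TPM, and stood at 116, 172 and 115 TPM with vehicle and 129, 75.4 and 92.4 TPM with SW033291 (log2 difference -0.32, SE 0.23, adjusted p 0.517). Sln rose with age from at most 6.75 to at least 84.6 TPM, and Col1a1, the main chain of collagen I, fell with age from at least 40.3 to at most 14.7 TPM. The age call held in 20 of 20 alternative fits for Sln, 19 for Gadd45a, 15 for Col1a1, 10 for Rrad and 6 for Uchl1. With replicate number as a block, the adjusted p was 0.000895 for Sln, 0.0112 for Rrad, 0.235 for Gadd45a, 0.209 for Col1a1 and 0.436 for Uchl1. Col1a1 stood at 14.9, 4.75 and 15.1 against 6.93, 8.35 and 3.33 TPM in batch 2, with overlap.

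The authors' deposited table of SW033291 against vehicle holds 16666 genes with a p-value, of which 456 (2.74%) are under 0.05 before adjustment, 195 higher (1.17%) and 261 lower (1.57%). Adjusted here by Benjamini-Hochberg over those genes, 1 (0.006%) is under 0.05. This gene is Slc15a2, a peptide transporter, with a log2 fold change of 3.99 (SE 0.77) and an adjusted p of 0.00388 in the authors' deposited table, where the next adjusted p is 0.253. In TPM, Slc15a2 stood at 0.57, 0.15 and 0.15 with vehicle and at 0.87, 3.94 and 6.21 with SW033291, and the limma log2 difference was 1.80 (SE 0.55, adjusted p 0.41), on a scale that understates changes of low genes. In batch 1 it ran from 0.23 to 4.94 TPM, so the SW033291 values were largely inside the range of vehicle-treated muscle. Fkbp5, a chaperone known as a glucocorticoid target, has a log2 fold change of 0.80 (SE 0.20) in the authors' deposited table, and stood at 64.2, 61.6 and 34.1 TPM with vehicle and at 77.02, 80.9 and 93.4 TPM with SW033291. All 3 were above each of the 10 vehicle libraries of the series, whose highest was 64.2 TPM, and the limma adjusted p was 0.448. Stat5b, a transducer of growth hormone signals, has -0.51 (SE 0.14) in the authors' deposited table, and stood at 117, 118 and 123 TPM with vehicle and at 77.3, 64.5 and 84.2 TPM with SW033291 (limma log2 difference -0.53, SE 0.16, adjusted p 0.392). Smad3 has -0.57 (SE 0.14) in the authors' deposited table, which like the limma fit left it over the threshold after adjustment (0.253).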

How the data were processed

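RNA was extracted with Trizol and made into libraries with a kit that does not mark strand (TruSeq RNA version 2), per the labels' protocols, so overlapping and antisense genes cannot be told apart. STAR, RSEM, DESeq2, DESeq and the build mm9 are named in the submitters' processing notes, without versions or roles. The authors deposited TPM for 24015 genes in 13 libraries, with no read counts, so depth and counting error are unknown. Their table of SW033291 against vehicle holds, per the file headers, a log2 fold change with its SE, a test statistic (a score), an unadjusted p-value and a mean of normalised counts (a signal), for 24013 genes. Which libraries entered that table is not stated.

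The names in the deposited TPM table were not on their own rows. A total of 27 names turned into dates were restored, and all names were sorted in byte order and put back on the rows. The Spearman correlation of mean level with the authors' deposited table, across 24013 genes, went from -0.0175 to 0.960, and the Pearson correlation of the log2 differences, over the 6371 genes at a mean level of 50 or above, from -0.0122 to 0.928. With sorted names moved by 1 row the latter was 0.0906 or 0.0873. For 7 genes, Adipoq and Myh7 among them, both sources lay more than 1 log2 unit apart after sorting.

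The 11876 genes that reached 1 TPM in 3 or more libraries were fitted with limma 3.58.1 in R 4.3.3 on log2(TPM + 1), with a variance trend, 1 coefficient per group and Benjamini-Hochberg adjustment over all genes tested, at 0.05. The code was tested on simulated data. For a single gene, an exact permutation test of 3 against 3 cannot go below p = 0.10, so none was run. Each fold change is on the log2(TPM + 1) scale. Transcript lengths (longest transcript per symbol) were of GENCODE M21, and the length trend was removed as the median deviation per library in classes of length, an alternative chosen after seeing the data, as was the NRF1 motif. The members and the 39 lists were chosen with earlier results of these data known. Genes were named by rule: those of at least 5 TPM without overlap and with unadjusted p under 0.01 (10 per direction), up to 3 per list by lowest p, 20 fixed genes, the extremes of the genes called with age, and the leaders of the authors' deposited table. Other genes named (Ckm, Adipoq, S100a8, Pax7, further prostaglandin, cAMP, TGF-beta and respiratory members) were chosen after their values were seen. Alternatives covered the pseudocount, filters, scaling, variance model, library weights and each library left out.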

Additional observations from a re-analysis of the deposited data

How the results depend on the processing

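For SW033291 against vehicle, the count of genes passing was 0 in 16 of 20 alternatives. In the others it was 4 (1700020L24Rik, Cdc42ep5, Gm16740 and Inca1) with a pseudocount of 0.1, 1 (Inca1) with no variance trend, 3 (Gm14305, Gm7367 and Rab4b) without the 2 libraries with most granulocyte transcripts, and 1 (0 to 1 over the libraries left out; Hbb-bs without SW033291 replicate 4, a globin gene with near-identical copies, listed at 0 in 4 of the 6 libraries). The age count of 54 in batch 1 was 361 with library weights, 27 with no filter on low values, 31 with no variance trend, 24 with only the libraries of the comparison and 19 to 92 with 1 library left out. With replicate number as a block it was 6. Same-numbered libraries of batch 1 (numbers 3 and 4) had correlations of 0.171 and 0.04 of their deviations from the group means. Each value comes from a single pair of libraries, so these correlations cannot decide whether a shared number means a pairing. No paired analysis was possible for SW033291 against vehicle because the groups share no number. The respiratory median of 0.249 became 0.134 with quantile normalization and 0.115 with the length trend removed, and ran from 0.220 to 0.289 with 1 library left out. The cause was not tested. Of 71 named genes, 64 kept their direction in every alternative. Turned by a setting other than a left-out library were Fbxo32 (0.097 with the length trend removed), Myh4 (-0.007 with library weights, -0.032 with no filter, -0.12 with quantile normalization), Ppargc1a (-0.031 with no filter), Trim63 (-0.014 with quantile normalization) and, without the 2 granulocyte libraries, Ptgs1 (-0.191), Myh4 (-0.112), Ppargc1a (-0.15) and Trim63 (-0.007). With 1 library left out, values crossed 0 for Hpgd (-0.901 without vehicle replicate 2 to 0.153 without vehicle replicate 8), Tgfb1 (-0.127 without vehicle replicate 3 to 0.555), Ptgs1 (-0.058 without SW033291 replicate 4 to 0.453), Fbxo32 (-0.179 to 0.12), Myh4 (-0.113 to 0.195), Ppargc1a (-0.103 to 0.249) and Trim63 (-0.074 to 0.21). With 3 libraries a group and no depth, small differences may not be detectable.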

Other observations

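Glycolysis genes lay above the median of all genes in 23 of 28 tested members, by a median of 0.12, or 0.107 with the length trend removed. The paired enzymes that make and break fructose 2,6-bisphosphate, the activator of phosphofructokinase, went opposite ways. Pfkfb1, the muscle and liver form, stood at 47.2, 57.5 and 35.2 TPM with vehicle and at 59.1, 66.5 and 80.1 TPM with SW033291 (log2 difference 0.70, SE 0.19, limma adjusted p 0.413). Pfkfb3, the inducible form, stood at 69.9, 94.1 and 189 against 60.7, 50.1 and 61.6 TPM (log2 difference -0.77, SE 0.45, adjusted p 0.508). For both genes the SW033291 libraries lay outside the range of all 10 vehicle libraries of the series, above it for Pfkfb1 (highest 57.5 TPM) and below it for Pfkfb3 (lowest 69.9 TPM), as for 34 genes (0.286%) above and 101 (0.85%) below among all tested. Eno3, the muscle enolase, stood at 6823, 7240 and 7166 against 7678, 9532 and 7471 TPM, without overlap. Ucp3, an uncoupling protein of muscle mitochondria, stood at 224, 202 and 51.3 against 223, 333 and 271 TPM, where vehicle library 8 alone was low.

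Clock genes lay below the median of all genes in 14 of 18 tested members, by a median of 0.144, or 0.052 with the length trend removed, and 7 were lower without overlap (15.1% of all genes) against 0 higher, or 2 with median-of-ratios scaling (6.05% of all genes). Hlf, a clock output factor, stood at 7.21, 6.91 and 6.83 TPM with vehicle and at 5.10, 4.23 and 4.11 TPM with SW033291 (log2 difference -0.42, SE 0.15, limma adjusted p 0.394). Bhlhe40, a repressor in the clock, stood at 77.2, 76.6 and 102 against 73.7, 48.3 and 62.6 TPM. The core genes Clock and Cry1 overlapped, at 3.89, 5.38 and 4.97 against 4.50, 3.39 and 2.82 TPM and at 10.1, 10.8 and 9.45 against 8.81, 10.3 and 9.25 TPM.

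MHC genes of antigen presentation were above the median of all genes in 16 of 19 tested members, by a median of 0.248, which was 0.092 without SW033291 library 1 and 0.057 without vehicle library 3. H2-K1, a class I chain, stood at 114, 68.1 and 102 TPM with vehicle and at 172, 82.8 and 94.9 TPM with SW033291, so that library 1 was the high one. Of 23 tested interferon response genes, 15 were above the median of all genes, and 12 were higher and 11 lower with SW033291. At an unadjusted limma p under 0.05, 2 were higher and 1 lower (1.46% and 8.82% of all genes). Zbp1, an interferon-induced sensor of nucleic acids, stood at 0.81, 0.00 and 1.26 against 3.32, 2.66 and 2.25 TPM (log2 difference 1.35, SE 0.32, adjusted p 0.394). Ifit2 went the other way without overlap, at 2.14, 2.85 and 1.86 against 1.55, 0.71 and 0.50 TPM (log2 difference -0.67, SE 0.29, adjusted p 0.418). Proteasome genes were near the median of all genes (0.032 above it for 38 tested), and Psmd2, a subunit of the regulatory cap, stood at 251, 254 and 254 against 201, 182 and 222 TPM (log2 difference -0.20, adjusted p 0.407).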
